A study of Mus musculus with 3 samples.

Results

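Ion channels of 5 gene families were followed in whole skin of FVB mice, an inbred albino laboratory strain. Members were all genes of the tables whose symbol starts with Kcn (potassium channels), Cacn (voltage-gated calcium channels) or Clcn (CLC chloride channels and exchangers), or with Scn, Trpa, Trpc, Trpm or Trpv followed by a digit (voltage-gated sodium and transient receptor potential, TRP, channels). The non-coding Kcnq1ot1 was left out. This rule took 166 of 21885 gene rows, and it used symbols only, not values. It also took Trpc4ap, an associated protein that is no channel, and many auxiliary subunits.

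Skin came from late embryos (E18.5, embryonic day 18.5), pups (P3, 3 days after birth) and adults (10 weeks), all of them mice labelled as strain FVB, with no treatment or allele named and the column names calling each "WT". RNA was sequenced, and the tables give 1 averaged FPKM (fragments scaled to transcript length and to all mapped fragments) per gene and age; FPKM values given as triplets below stand in the order E18.5, P3, 10 weeks. Although 2 biological replicates per age are named in the design text, values of single animals were not used here. No spread, interval or p-value can therefore be attached to any value, no difference below has a replicate check, and the read depth behind each value is unknown. The skin label could be set against markers: all 5 basal and all 6 differentiated keratinocyte markers chosen were above 1 FPKM at 1 or more ages. Xist was at 0.0433, 64.6 and 73.0 FPKM, and the Y-linked Ddx3y at 24.1, 0.0218 and 0 FPKM, so that E18.5 had a male pattern of these genes and the other ages a female one. In whole skin, fewer cells of a type and less RNA per cell cannot be told apart.

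Voltage-gated channels open when the membrane potential changes. In muscle and nerve, sodium channels (Scn) carry the upstroke of the action potential, potassium channels (Kcn) end it or set the resting potential, and calcium channels (Cacn) turn it into a calcium signal. TRP channels are cation channels opened by heat, cold, lipids, stretch or irritants, and in skin Trpv3 is the warmth-sensitive channel of keratinocytes, whose activating mutations leave mice hairless. The sodium channels and TRP channels of pain and itch are made in sensory neurons, whose cell bodies lie in ganglia outside the skin.

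Channel RNA was scarce. The median member stood at 0.396, 0.250 and 0.650 FPKM, against 3.36, 2.94 and 4.28 FPKM for all genes. Of the 166 members, 54, 44 and 71 reached 1 FPKM at the respective ages, 81 did so at 1 or more ages and 35 at all 3. That is 48.8% at 1 or more ages, against 67.0% of all genes. The summed FPKM of the members was 309, 313 and 621, which was 0.0521%, 0.0517% and 0.0949% of the total. Trpc4ap was the highest member at E18.5 and P3, with 33.4, 40.4 and 45.9 FPKM.

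The remaining 85 members stayed under 1 FPKM at all ages, with a median maximum of 0.137 FPKM and a highest of 0.982. Of these, 32 belong to a list of channels named for a cell type and 53 do not. Kcnk9, named after its values were seen, and Kcnk18 were listed at 0 at every age. Members under 1 FPKM came from long genes: their listed spans had a median of 84.1 kb, against 8.55 kb for all genes under 1 FPKM. Members at or above 1 FPKM had a median span of 32.0 kb, against 23.1 kb for all such genes.

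Ages were compared by the difference in log2(FPKM + 1), later minus earlier age, for genes whose FPKM was 1 or above at any age. A gene is called higher or lower where this difference is at least 1, which is 2-fold on this scale. Adding 1 makes the change of weakly expressed genes look smaller than it was. A member that passed the FPKM minimum through a single age had to differ from the others, so the counts over the 81 members that passed describe them and support nothing further.

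From E18.5 to P3, 8 of the 81 members were higher and 16 lower. Among all 14653 genes compared, 9.56% were higher and 9.42% lower, so that the share of members that were higher (9.88%) was near that background and the share that were lower (19.8%) above it. The median difference was -0.13 for the members and 0.03 for all genes. From P3 to 10 weeks, 32 members were higher and 9 lower, against 19.8% and 9.98% of all genes, with medians of 0.70 and 0.14. From E18.5 to 10 weeks, 25 members were higher (30.9%) and 3 lower (3.7%), against 16.1% and 6.92% of all genes. Of all calls from E18.5 to 10 weeks, upper-quartile scaling left 22 members higher and 6 lower, and 57.1% of the called genes of the whole table higher in place of 69.9%. The comparisons share ages, since each age has a single value that enters 2 of them.

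**Figure D1:**
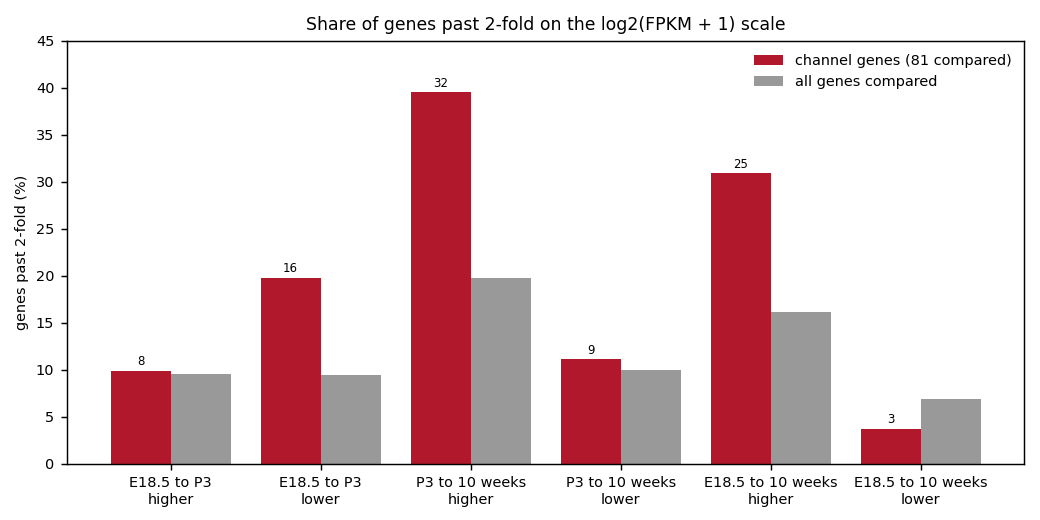
Bars give the percentage of genes past 2-fold on the log2(FPKM + 1) scale in each comparison and direction, red for the 81 channel genes compared and grey for all genes compared; numerals on the red bars count channel genes. The red bar stands well above the grey one for genes higher at 10 weeks than at P3 (32 members, 39.5% against 19.8%) and near it for genes higher at P3 than at E18.5 (8 members).

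Most calls followed a few courses over the ages. In all, 23 members were highest at 10 weeks by 2-fold over both other ages, against 12.3% of all genes. Another 7 were highest at P3 (5.35% of all genes), namely Trpv3, Trpv6, Trpm1, Kcnk7, Kcnk16, Kcnh1 and Kcne1. A further 10 were lowest at P3 (5.54% of all genes), 5 of which were also among the 23. Only Cacna1g, Kcnk3 and Kcne1l were highest at E18.5 (2.91% of all genes), and 0 were lowest there (2.45%) or lowest at 10 weeks (3.51%). The 31 members under 2-fold in all comparisons (60.3% of all genes) included 6 of the 7 CLC genes above 1 FPKM.

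Among the keratinocyte channels, Trpv3 (mm9 chromosome 11, 73081122 to 73110702) stood at 1.51, 6.81 and 2.25 FPKM. P3 was thus the high age and the other ages were alike, with log2 differences of 1.64, -1.26 and 0.37 for E18.5 to P3, P3 to 10 weeks and E18.5 to 10 weeks. Trpv6, a calcium-selective channel of epithelia, had almost the same values, 1.66, 6.44 and 2.22 FPKM. Trpv4, a channel opened by warmth and cell swelling that sits at keratinocyte junctions, followed another course, with 4.30, 8.48 and 11.0 FPKM and its maximum in the adult. It was called higher from E18.5 to 10 weeks (1.18), a call that is lost under both other scalings and with a pseudocount of 5. Trpc1 and Trpc4, which human keratinocytes use for calcium entry, were low: Trpc1 at 1.17, 0.669 and 1.71 FPKM, Trpc4 at 0.238, 0.294 and 0.124 FPKM. With a pseudocount of 5 the P3 calls of Trpv3 and Trpv6 were lost in both directions.

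Keratinocyte markers had their highest sum at the same age. The summed FPKM of 5 basal markers was 2078, 5228 and 1588, and that of 6 differentiated markers 3805, 12129.5 and 3234. Per 1000 FPKM of the basal sum, Trpv3 stood at 0.727, 1.30 and 1.42, and Trpv6 at 0.800, 1.23 and 1.40. On this ratio P3 was no longer the high age of either gene. The sum was mostly Krt5 (1058, 2638 and 816 FPKM) and Krt14 (952, 2439 and 646). The other basal markers fell less after P3 than Trpv3 or Trpv6 did. Itga6 stood at 31.7, 40.2 and 27.8 FPKM, Itgb4 at 6.85, 20.2 and 19.0, and Col17a1 at 30.1, 89.7 and 78.9. The ratio to the sum therefore does not speak for these markers. Trpv4 per 1000 FPKM of the same sum was 2.07, 1.62 and 6.94, with the adult above the other ages. Which cells the RNA came from was not tested.

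The promoter of Trpv3 is shown because Trpv3 is the best-known keratinocyte channel of the list. It covers 250 bases before to 50 bases after the listed start, from RefSeq's GRCm38.p6 (chr11:73267270-73267569, plus strand, a different build from that of the tables). Capitals mark the 5 matches to CANNTG, the E-box, which reads the same on both strands.
Trpv3: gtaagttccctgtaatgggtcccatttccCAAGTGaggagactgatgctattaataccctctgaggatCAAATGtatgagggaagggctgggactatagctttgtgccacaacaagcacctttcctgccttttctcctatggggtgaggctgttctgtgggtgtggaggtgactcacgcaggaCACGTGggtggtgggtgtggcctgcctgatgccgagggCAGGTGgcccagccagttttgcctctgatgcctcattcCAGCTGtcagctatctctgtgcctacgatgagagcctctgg

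On the log2(FPKM + 1) scale the largest P3 excess belonged to Trpm1 (mm9 chromosome 7, 71298721 to 71414645), a channel of melanocytes and of retinal bipolar cells. Its values were 3.20, 20.3 and 1.35 FPKM, so that P3 was the high age, with log2 differences of 2.34 up to P3 and -3.18 after it. Among the 81 members compared, the first was the highest and the second the lowest difference of its comparison. Trpm1 overlaps Mir211 (at most 1.06 FPKM) in its listed span. With a pseudocount of 0.1 the weakly expressed Kcnh1, Kcne1 and Kcnk16 had larger differences from E18.5 to P3 than Trpm1. All 5 melanocyte markers were above 1 FPKM, and their sum was 102, 255 and 23.0 FPKM; for Mlana, a melanosome protein, the values were 12.2, 81.8 and 4.77 FPKM. Per 1000 FPKM of the marker sum Trpm1 stood at 31.5, 79.6 and 58.8, again highest at P3. The markers did not move alike. Mlana rose more to P3 than Trpm1 (log2 difference 2.65), and Mlana (-3.84) and Pmel (-3.65) fell more after it. Dct, Tyrp1 and Tyr changed less than Trpm1 in both steps. The P3 maximum of the ratio thus holds for the sum, not for every marker taken alone. The part of melanocyte number in the result was not tested.

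The sequence before Trpm1 is given because the melanocyte factor MITF is known to bind CATGTG. Of the 2 starts that RefSeq lists for Trpm1 on GRCm38.p6, the first is printed (chr7:64153585-64153884, plus strand), with its 1 match in capitals. The window of the other start also holds 1 match on either strand. CATGTG or its reverse complement occurs in 14.1% of the promoters of all 27025 symbols and in 11 of the 124 members' promoters that RefSeq's table holds. It is a special case of CANNTG, and a match is a description, not a site.
Trpm1: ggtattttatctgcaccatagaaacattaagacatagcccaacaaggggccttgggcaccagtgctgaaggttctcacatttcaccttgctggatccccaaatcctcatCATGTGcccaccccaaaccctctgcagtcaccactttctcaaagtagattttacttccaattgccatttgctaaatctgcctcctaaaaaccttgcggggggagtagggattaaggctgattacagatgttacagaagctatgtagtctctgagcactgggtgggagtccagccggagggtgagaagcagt

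Potassium channel genes made up the rest of the P3 group. Kcnk7, of the tandem-pore-domain family of leak channels, stood at 5.24, 18.8 and 6.14 FPKM, so that P3 stood well above the other ages. Kcnk16, known from the pancreas, was at 0.362, 4.17 and 0.277 FPKM. Kcnh1, the voltage-gated channel of the ether-a-go-go family, was at 0.0840, 1.99 and 0.348 FPKM. Kcne1, an auxiliary subunit of Kcnq1, was at 0.0282, 1.17 and 0.0253 FPKM, while Kcnq1 itself, named after its values were seen, stood at 0.799, 0.680 and 1.73. Of these 4, only Kcnk7 kept its P3 calls with a pseudocount of 5. Kcnk16, Kcnh1 and Kcne1 reached 1 FPKM at P3 alone, so being highest there followed from that minimum. The inward rectifier Kcnj12 was also 2-fold higher in pups than in embryos (3.80 and 10.9 FPKM) and stood at 6.02 FPKM in the adult. Markers of the hair shaft and inner root sheath had the same high age, with a sum of 156, 3728 and 203 FPKM over 5 genes, each above 1 FPKM at 1 or more ages. Their part in these values was not tested.

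The channels of mature skeletal muscle formed the largest block of adult-high genes. All 10 listed genes were higher at 10 weeks than at P3, against 19.8% of all genes, with a median of 3.29 on the log2 scale. Between E18.5 and P3, 5 of them were lower and 0 higher (9.42% and 9.56% of all genes), with a median of -1.07. From E18.5 to 10 weeks 9 of the 10 were higher (16.1% of all genes), with a median of 2.32. Their summed FPKM was 36.1, 7.83 and 167. Over the 10 genes the lowest age was P3 in every case. Scn4a, Clcn1 and Kcna7 reached 1 FPKM at 10 weeks alone, so being highest there followed from that minimum. Marker sums of other cell types were also lowest at P3: that of 5 fibroblast markers was 3142, 1144 and 3590 FPKM, that of 5 white adipocyte markers 4101, 1453 and 5768, and that of 4 mast cell markers 844, 77.7 and 346. Not every gene in these sums was lowest at P3. Col1a1 of the fibroblast list was lowest at 10 weeks (1080, 412 and 354 FPKM) and Lep of the adipocyte list at E18.5 (3.08, 7.25 and 63.9). The other genes of these lists were lowest at P3. Fabp4 alone held 87.9% of the adipocyte sum at P3. The part of these cell types in the low P3 values was not tested.

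The calcium channel complex of muscle has Cacna1s as its pore and voltage sensor, which triggers the calcium release channel Ryr1. Cacna1s (mm9 chromosome 1, 137949478 to 138016399) stood at 2.75, 0.324 and 32.8 FPKM, the largest P3 to 10 weeks difference of the list (4.67). Its partners Cacnb1 and Cacng1 were at 8.61, 3.10 and 30.4, and at 13.6, 1.10 and 24.0 FPKM. The course was shared, but the size of the adult excess over E18.5 was not: the log2 difference was 3.17 for Cacna1s, 1.71 for Cacnb1 and 0.77 for Cacng1, which stayed under 2-fold. Cacna2d1, the alpha2delta1 subunit, had 4.41, 1.31 and 13.5 FPKM, and Cacng6 2.16, 0.153 and 11.1 FPKM.

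The genes of the muscle action potential were low at both early ages. Scn4a, the sodium channel of muscle fibres (mm9 chromosome 11, 106179907 to 106210704), stood at 0.675, 0.102 and 11.1 FPKM. Clcn1, whose chloride current keeps the fibre at rest, had 0.531, 0.0529 and 8.66 FPKM. Among potassium channels Kcna7 was at 0.440, 0.331 and 12.8 FPKM, Kcnj2 at 1.74, 1.22 and 13.7, and Kcnj11, the pore of the ATP-sensitive channel, at 1.14, 0.143 and 8.98. For all 5 the adult stood far above both early ages. Channels tied to embryonic or denervated muscle stayed low: Kcnn3 peaked at 0.897 FPKM, and Cacna1h, at 1.27, 0.336 and 0.255 FPKM, had its maximum at E18.5. Cacna1h reached 1 FPKM at that age alone.

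Promoters of 4 genes of this list are shown because these genes were all highest in the adult, and the factors of the MyoD family bind CANNTG, which capitals mark. The windows run from 250 bases before to 50 after the start on RefSeq's GRCm38.p6: Scn4a at chr11:106349341-106349640 (minus strand), Clcn1 at chr6:42286435-42286734 (plus), Cacna1s at chr1:136052561-136052860 (plus) and Kcna7 at chr7:45405710-45406009 (plus). There are 3 matches for Clcn1, 2 for Cacna1s, 3 for Kcna7 and 0 for Scn4a.
Scn4a: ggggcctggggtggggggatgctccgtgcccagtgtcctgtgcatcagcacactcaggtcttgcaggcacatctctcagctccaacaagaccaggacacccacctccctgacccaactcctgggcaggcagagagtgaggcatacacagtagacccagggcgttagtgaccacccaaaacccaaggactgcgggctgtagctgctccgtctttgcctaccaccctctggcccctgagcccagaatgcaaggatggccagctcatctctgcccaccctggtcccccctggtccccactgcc
Clcn1: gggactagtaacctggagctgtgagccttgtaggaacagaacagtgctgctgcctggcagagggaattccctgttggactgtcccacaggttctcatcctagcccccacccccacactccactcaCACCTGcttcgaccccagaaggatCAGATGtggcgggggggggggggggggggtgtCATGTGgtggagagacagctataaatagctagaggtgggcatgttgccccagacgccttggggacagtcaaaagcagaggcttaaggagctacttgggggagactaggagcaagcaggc
Cacna1s: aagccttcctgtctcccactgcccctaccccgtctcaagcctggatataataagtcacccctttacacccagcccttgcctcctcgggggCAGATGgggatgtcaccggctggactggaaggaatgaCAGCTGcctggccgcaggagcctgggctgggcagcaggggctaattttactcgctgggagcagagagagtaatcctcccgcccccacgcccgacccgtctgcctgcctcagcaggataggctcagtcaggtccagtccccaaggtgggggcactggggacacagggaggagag
Kcna7: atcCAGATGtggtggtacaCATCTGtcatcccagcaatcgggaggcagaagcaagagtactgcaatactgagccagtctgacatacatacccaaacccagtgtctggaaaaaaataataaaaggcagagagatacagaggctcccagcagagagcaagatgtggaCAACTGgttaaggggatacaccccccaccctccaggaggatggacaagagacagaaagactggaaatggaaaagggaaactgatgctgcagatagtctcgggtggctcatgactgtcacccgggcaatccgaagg

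Such matches are common. CANNTG occurs in 72.1% of the promoters of all symbols, in 93 of the members' 124 and in 5 of the 8 muscle list promoters found. CAGCTG, the form within CANNTG that MyoD prefers, occurs in 16.1% of all promoters, in 35 of the 124 and in 2 of the 8. The MEF2 consensus, searched on both strands, occurs in 3.26% of all promoters and in 1 of the 8, that of Clcn1. The absence of a match says only that these letters are not in the window.

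Skeletal muscle markers moved in the same direction, and their sum moved further than that of the channels. All 10 were lower at P3 than at E18.5 and higher at 10 weeks than at P3, and their sum was 5011, 428 and 24724 FPKM. Per 1000 FPKM of that sum the 10 channel genes together stood at 7.20, 18.3 and 6.76. On this ratio the genes parted: Scn4a went 0.135, 0.237 and 0.449 and Cacna1s 0.549, 0.756 and 1.33, highest in the adult, whereas Cacng1 went 2.72, 2.56 and 0.970, lowest there. Cacnb1 had its highest ratio at P3 (1.72, 7.24 and 1.23), as did Kcnj2, Cacna2d1 and Kcna7. The part of muscle content in the adult excess was not tested.

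**Figure D2:**
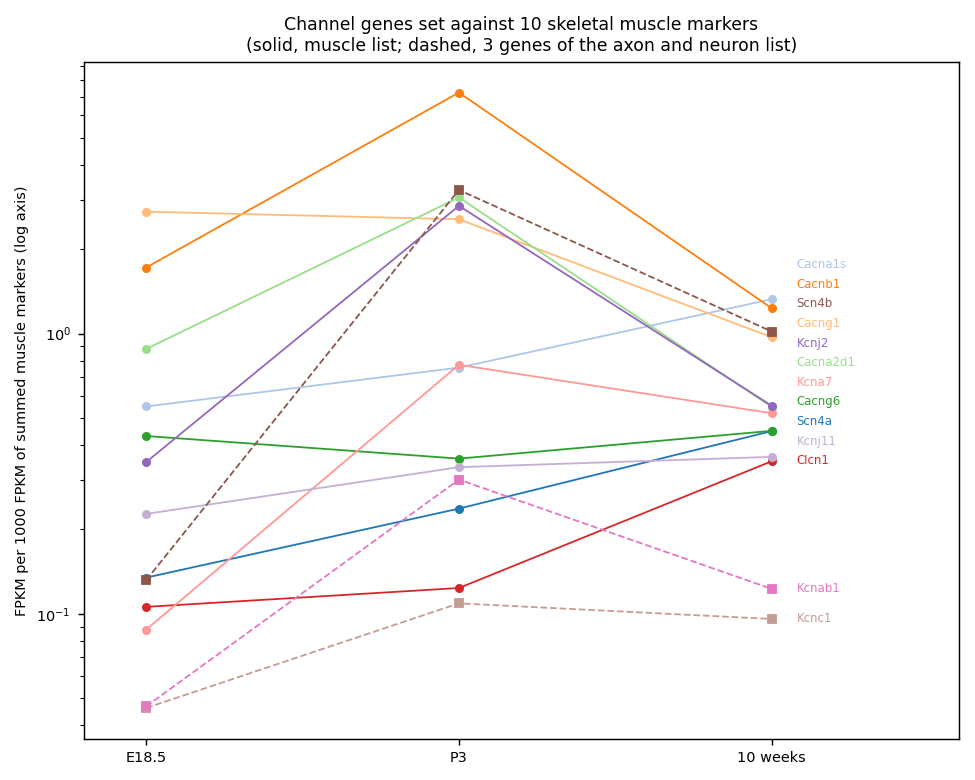
Points are the FPKM of each channel gene per 1000 FPKM of the summed 10 skeletal muscle markers at each age, on a log axis; solid lines are the 10 muscle channel genes and dashed lines 3 genes of the axon and neuron list. Scn4a, Cacna1s and Clcn1 have their highest ratio at 10 weeks, Cacng1 its lowest (0.970), and Scn4b and Cacnb1 have their highest at P3.

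The genes that act with these channels were mostly low at P3 as well. Of 15 listed genes of excitation-contraction coupling, 14 passed 1 FPKM; from embryos to pups 12 of them passed 2-fold downward (9.42% of all genes) and 0 upward, and from pups to adults 12 passed it upward (19.8% of all genes) and 0 downward. Ryr1, the release channel that Cacna1s controls, stood at 3.30, 0.436 and 39.5 FPKM, and the coupling protein Stac3 at 5.22, 0.674 and 37.5. Against E18.5, 9 were 2-fold higher in the adult (16.1% of all genes) and 2 lower (6.92%), Sln, an inhibitor of the calcium pump (221, 6.17 and 39.4 FPKM), and the acetylcholine receptor subunit Chrnd (1.73, 0.102 and 0.214).

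Genes best known from axons and neurons were split by level. Of 17 listed, 9 reached 1 FPKM. All 9 were higher at 10 weeks than at P3 (19.8% of all genes) and than at E18.5 (16.1%), with medians of 1.69 and 1.45. From E18.5 to P3 none passed 2-fold (9.56% of all genes higher and 9.42% lower). Kcna1, Kcna2, Kcnc1, Kcnab1, Cacna1a and Scn2b reached 1 FPKM at 10 weeks alone, so being highest there followed from that minimum. The list was also chosen with earlier results of these data known. Scn4b, the beta4 subunit of sodium channels, stood at 0.660, 1.39 and 25.1 FPKM, far higher in the adult than at either early age. It also occurs in skeletal muscle, and per 1000 FPKM of the muscle markers it was at 0.132, 3.25 and 1.02, highest at P3.

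The pore genes of the same list were far lower than Scn4b in the adult. Kcna1 and Kcna2, which sit beside the nodes of myelinated axons, stood at 0.297, 0.391 and 3.41 FPKM and at 0.320, 0.171 and 2.24. Kcnc1, a fast potassium channel, was at 0.231, 0.0467 and 2.37 FPKM and Cacna1a, the P/Q-type calcium channel of nerve endings, at 0.493, 0.348 and 3.09. Their auxiliary subunits Kcnab1 and Kcnab2 were at 0.234, 0.129 and 3.03 and at 2.99, 1.60 and 8.96 FPKM, and Scn2b at 0.662, 0.428 and 2.43. Scn2b overlaps other genes in its listed span. The neuronal sodium channels stayed under 1 FPKM: Scn1a peaked at 0.0175 FPKM, Scn8a at 0.137, Scn3a at 0.653 and Scn2a1 at 0.801. Kcnq3 peaked at 0.0444 FPKM and was listed at 0 in the adult. With a pseudocount of 5, the adult calls over P3 remained for Scn4b and Kcnab2 and were lost for Kcna1, Kcna2, Kcnc1, Kcnab1, Cacna1a and Scn2b. The adult call of Scn2b over E18.5 was lost with that pseudocount and under both other scalings.

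Sensory neuron channels were low. Of 11 listed, only the stretch-sensitive Kcnk2 reached 1 FPKM, with 2.39, 3.81 and 3.92 FPKM and no difference past 2-fold. The pain sodium channels Scn9a, Scn10a and Scn11a peaked at 0.0274, 0.00337 and 0.0231 FPKM. The capsaicin receptor Trpv1 stood at 0.0953, 0.112 and 0.402 FPKM, the cold receptor Trpm8 at 0.0688, 0.186 and 0.0205, and the irritant receptor Trpa1 was listed at 0 at E18.5 and P3 and at 0.0115 FPKM at 10 weeks. The leak channel Kcnk4 came closest to 1 FPKM among the rest, with 0.982, 0.962 and 0.364. As depth is unknown, values this low cannot be ordered. Of 8 markers of neuron cell bodies, 6 were also under 1 FPKM at all ages, Elavl3 at 0.0529 FPKM or less; the exceptions were Uchl1 and Tubb3 (1.99, 16.5 and 1.28 FPKM).

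The genes best known from glia differed in level. Scn7a, a sodium-sensing relative of the sodium channels that non-myelinating Schwann cells express, stood at 3.13, 0.865 and 19.0 FPKM, lowest at P3 and highest in the adult (log2 differences -1.15 and 3.42). Kcnj10, the potassium channel of satellite glia, stayed between 0.141 and 0.181 FPKM. All 6 Schwann cell markers were above 1 FPKM at 1 or more ages and their sum was 31.8, 46.6 and 245 FPKM. Per 1000 FPKM of that sum Scn7a was at 98.5, 18.6 and 77.5, so P3 was low on this ratio as well. The part of nerve content was not tested.

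**Figure D3:**
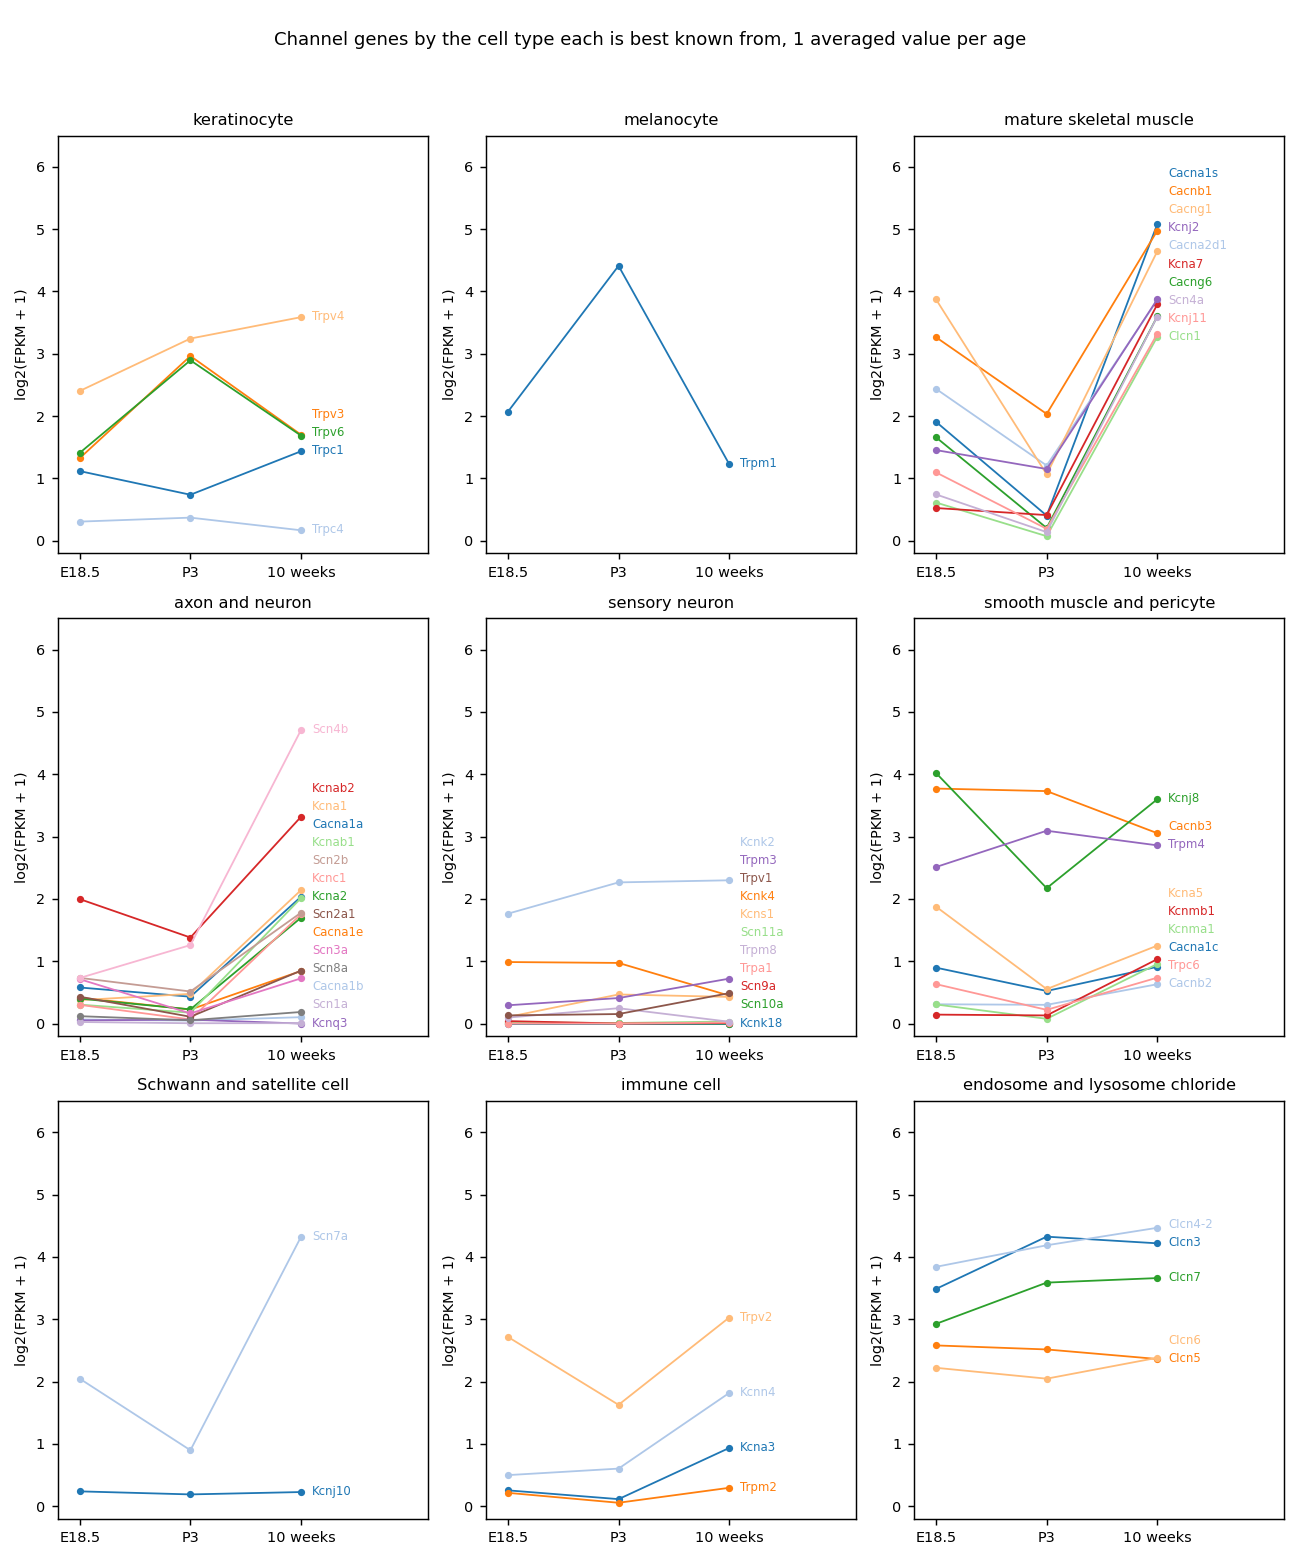
Lines give log2(FPKM + 1) of each channel gene at the 3 ages, in panels by the cell type each gene is best known from, for the genes reported here, with 1 averaged value per age. Trpv3, Trpv6 and Trpm1 peak at P3, the 10 muscle genes share a minimum at P3 and a maximum at 10 weeks, and all sensory neuron genes but Kcnk2 stay under 1 FPKM.

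Of 10 vessel and smooth muscle channels, 6 reached 1 FPKM. Of these, 2 were lower at P3 than at E18.5 by 2-fold (9.42% of all genes). Kcnj8, the pore of the ATP-sensitive channel of vessels, stood at 15.2, 3.51 and 11.1 FPKM and Kcna5 at 2.67, 0.467 and 1.38, and these were the genes lower in pups. Only Kcnj8 was higher again at 10 weeks by 2-fold (log2 difference 1.43), against 19.8% of all genes. Cacnb3 (12.6, 12.3 and 7.31 FPKM) and the calcium-activated Trpm4 (4.70, 7.53 and 6.25) did not pass 2-fold. Cacna1c, the calcium channel of smooth muscle contraction, was at 0.862, 0.436 and 0.879 FPKM. The calcium-activated Kcnma1 was at 0.236, 0.0543 and 0.939, with its partner Kcnmb1 at 0.105, 0.0946 and 1.05. Kcnmb1 shares its listed span with Kcnip1, so its value is uncertain. Trpc6 peaked at 0.666 FPKM and Cacnb2 at 0.548. The 6 smooth muscle and pericyte markers, all above 1 FPKM, summed to 123, 117 and 249 FPKM, and 4 endothelial markers to 122, 40.6 and 104, so that the endothelial sum shared the low value at P3. Their part was not tested.

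Other subunits were also low at P3. The auxiliary Kcne3 and Kcne4 stood at 4.49, 0.832 and 5.48 and at 7.61, 1.88 and 5.37 FPKM, and both lay 2-fold under either other age. Scn3b, the beta3 sodium channel subunit, was at 2.44, 0.231 and 1.45 FPKM. The E18.5-high genes were the T-type calcium channel Cacna1g (11.5, 2.53 and 3.22 FPKM), the acid-sensitive leak channel Kcnk3 (7.76, 0.749 and 1.26) and the X-linked Kcne1l (5.84, 0.968 and 0.567). Kcne1l reached 1 FPKM at E18.5 alone, so being highest there followed from that minimum. For Kcne1l the male pattern at E18.5 and the age cannot be told apart. Of the 5 X-linked members, Clcn5 was the other one above 1 FPKM and stayed under 2-fold (4.98, 4.72 and 4.15). Cacng4 and Kcnmb4 were lower in the adult than at P3, from 2.44 to 0.272 and from 4.04 to 1.47 FPKM. Both calls were lost with a pseudocount of 5, and Kcnmb4 overlaps another gene in its listed span.

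Among 4 immune cell channels, 2 reached 1 FPKM. Kcnn4, the calcium-activated channel of lymphocytes and red cells, stood at 0.414, 0.520 and 2.52 FPKM and passed 2-fold against both early ages. Trpv2, found in macrophages among other cells, was at 5.57, 2.09 and 7.15 FPKM, lowest at P3 and under 2-fold apart between E18.5 and the adult. Kcna3, of T cells, did not exceed 0.912 FPKM and Trpm2 0.228. Markers of macrophages summed to 94.8, 40.0 and 379 FPKM and those of T cells to 4.37, 6.57 and 30.7, with none listed at 0. The 4 macrophage markers were above 1 FPKM at all ages, whereas the T cell markers Cd3e, Cd3d and Cd3g were so in the adult alone. Their part was not tested. Kcnk13, Kcnk5 and Kcnq5, named here after their values were seen, belong to the adult-high group as well, with 2.74, 4.22 and 2.44 FPKM at 10 weeks and at most 1.57 before. Kcnn4, Kcnk13 and Kcnq5 reached 1 FPKM at 10 weeks alone, so being highest there followed from that minimum. For Kcnk5 the call over E18.5, at 1.02 on the log2 scale, was lost under both other scalings and with a pseudocount of 5.

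Channels of endosomes and lysosomes did not pass 2-fold in any comparison. The chloride-proton exchangers Clcn3 (10.2, 19.0 and 17.6 FPKM), Clcn4-2 (13.3, 17.2 and 21.1), Clcn6 (3.66, 3.13 and 4.21) and the lysosomal Clcn7 (6.61, 11.0 and 11.6) stayed under 2-fold in all comparisons, as did Clcn5. Trpm7, a channel fused to a kinase that most cells need for magnesium balance, was at 20.2, 22.2 and 18.2 FPKM. Its relative Trpm6 peaked at 0.368 FPKM. Trpc2, a pheromone-sensing channel of the vomeronasal organ, had 2.62, 2.29 and 1.84 FPKM, a level above that of Trpv3 at E18.5. Of the leak channels Kcnk6 was at 7.84, 14.0 and 9.05 FPKM.

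By structural class, the 10 sodium channel alpha genes summed to 5.18, 1.33 and 32.0 FPKM, and Scn7a held 59.4% of the adult sum. Calcium channel auxiliary genes went 48.3, 24.2 and 91.1 FPKM and their alpha1 pores 18.0, 5.13 and 42.3; Cacna1g held 64.0% of the alpha1 sum at E18.5 and Cacna1s 77.5% at 10 weeks. CLC genes summed to 41.7, 58.6 and 70.3 FPKM. Of the classes drawn, only TRPM (29.0, 51.0 and 27.0), TRPV (13.1, 23.9 and 23.1) and tandem-pore-domain genes (28.0, 47.0 and 30.4) had their highest sum at P3. The most numerous class, the 40 voltage-gated potassium pores, summed to 19.6, 14.2 and 46.9 FPKM, and Kcna7 held 27.4% of the adult sum. Kcnn1, of the calcium-activated class, stood at 0.970, 0.796 and 2.11.

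**Figure D4:**
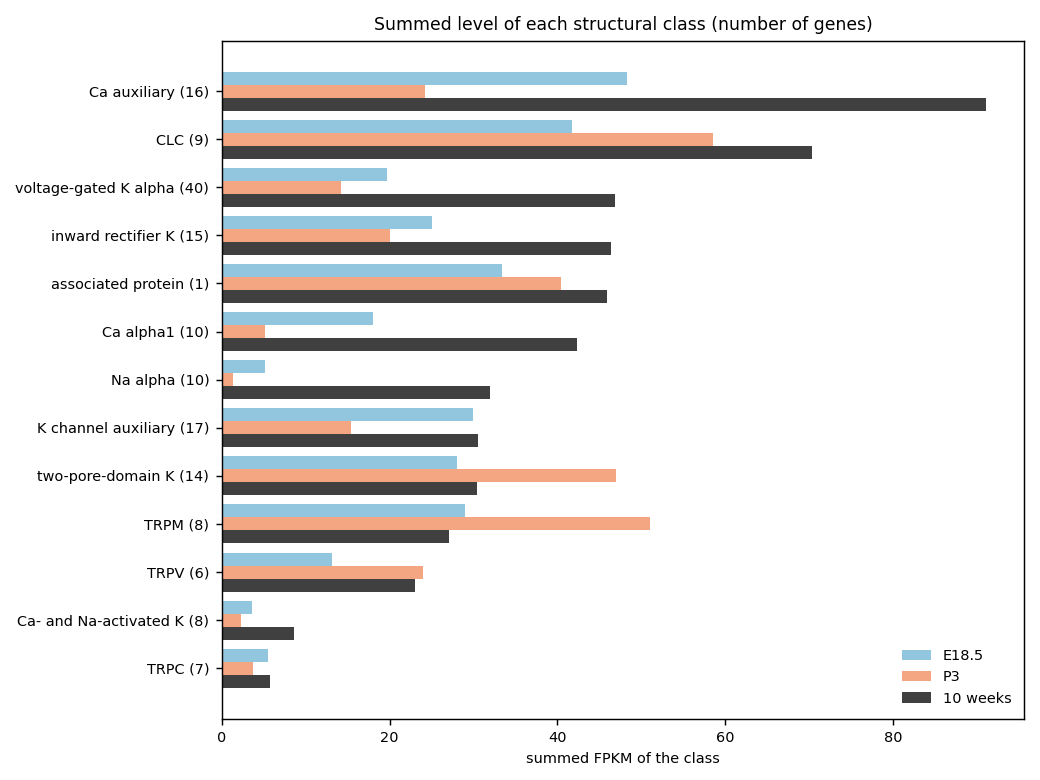
Bars are the summed FPKM of the structural classes at the 3 ages, with the number of genes in brackets; the class with Trpa1 alone and the sodium channel beta subunits are not drawn. The calcium channel auxiliary genes reach 91.1 FPKM at 10 weeks, and TRPM, TRPV and two-pore-domain (tandem-pore-domain) channels peak at P3.

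Neighbouring channel genes were also set side by side. Placed less than 200 kb apart in mm9, 48 members formed 21 groups, and 7 groups held at least 2 genes above 1 FPKM. In 5 of these 7 such genes had their maxima at different ages. Of all 81 members, 16.0%, 25.9% and 58.0% were highest at E18.5, P3 and 10 weeks. Members taken without regard to place would thus often differ as well, and the count says nothing particular about neighbours. Trpv1 and Trpv3 lie 7112 bases apart on chromosome 11, with 0.112 and 6.81 FPKM at P3. Trpv6 and Trpv5 are 16364 bases apart on chromosome 6, and Trpv5, also named after its values were seen, did not exceed 0.00834 FPKM. Kcnk5 and Kcnk16 on chromosome 14 peaked in the adult and at P3. On chromosome 11, Cacng1 was highest at 10 weeks and Cacng4, 18303 bases on, at P3. In the sodium channel cluster of chromosome 2, Scn9a and Scn7a are 38473 bases apart, with 0.00498 and 19.0 FPKM in the adult. Scn2b and Scn4b, 3435 bases apart on chromosome 9, both peaked in the adult.

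**Figure D5:**
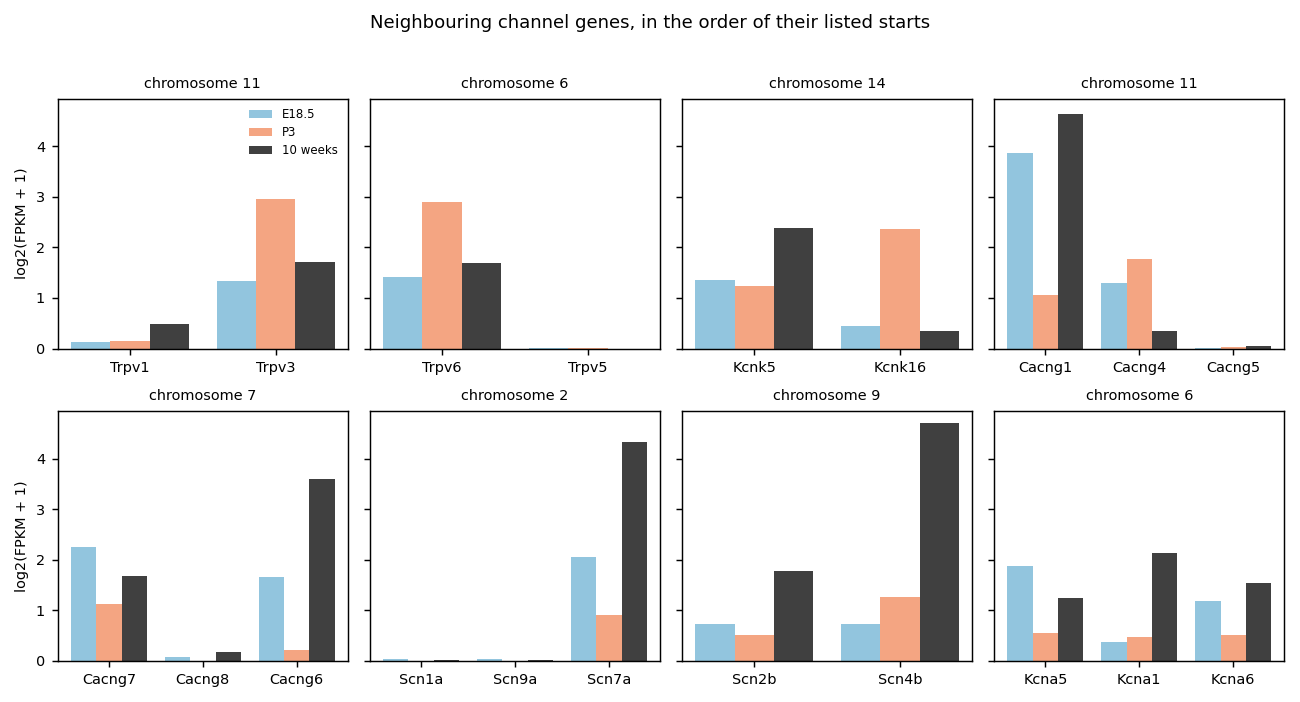
Bars give log2(FPKM + 1) at the 3 ages for 8 groups of neighbouring channel genes, in the order of their listed starts and not to scale in distance. Trpv3 and Trpv6 stand high at P3 beside the low Trpv1 and Trpv5, and Scn7a stands beside Scn1a and Scn9a, which lie near 0.

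Channels outside the rule gave a frame for these values. Of 28 other cation channel and store-operated entry genes, 22 passed 1 FPKM. Against E18.5, 4 were higher and 1 lower in pups (9.56% and 9.42% of all genes). Against pups, 6 were higher and 3 lower in adults (19.8% and 9.98% of all genes). The 4 were the epithelial sodium channel subunits Scnn1a (2.31, 12.6 and 5.68 FPKM) and Scnn1b (2.14, 7.55 and 2.16), and the calcium release receptors Itpr2 and Itpr3. The mechanical channel Piezo1, listed as Fam38a, stood at 12.5, 17.2 and 17.4 FPKM, and Piezo2, the touch channel, listed as Fam38b, at 1.12, 0.498 and 0.815. Of 12 chloride channel genes outside the CLC family 9 passed. In pups 1 was higher than in embryos (9.56% of all genes), and 1 was higher at 10 weeks than at P3 (19.8%). These were Clca2, an epidermal gene (29.7, 111 and 86.5 FPKM), and the muscle gene Ano5 (0.0999, 0.0294 and 6.996 FPKM).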

How the data were processed

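RNA of whole FVB mouse skin was measured at 3 ages. Per the file headers, the deposited values are averaged FPKM by the authors, 1 per gene and age. Per the submitters' processing notes, TopHat2 2.0.7, Cufflinks 2.1.1 and build mm9 were used; the sources used here give no annotation, strand setting or treatment of shared reads, so overlapping genes are uncertain, and depth is unknown. Values at 0 with a failure mark (3 at E18.5, 7 at P3) were left out; none was a member's. FPKM is a share of each library.

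Differences in log2(FPKM + 1) were taken among genes at or above 1 FPKM at 1 or more ages and called at 1; no test was possible. The code for calling was checked on planted changes without noise, larger than the threshold, in highly expressed genes only. Their recovery was built in and does not speak for genes as low as most members. Starts count from 0 in the tables (end minus start equalled the hairpin length in 208 of 443 microRNA genes, against 2 for end minus start plus 1), so 1 was added. Of 210 entries of hand-written lists, 6 matched by an older symbol. Members and lists were chosen with earlier results of these data known. Named genes are list members and, outside the lists, members among the 10 highest or the 10 largest differences or highest in their class; a few others are said to be chosen after their values were seen. Python 3.11.15, pandas 2.3.3 and numpy 2.4.6 were used. Alternatives were other pseudocounts, minimums and scalings, and leaving out chromosomes X and Y. A few members and markers are counted in lists and sums but not reported here by name.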

Additional observations from a re-analysis of the deposited data

How the results depend on the processing

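No paired analysis was possible because each age has a single averaged value. With a pseudocount of 0.1, which adds low genes, 13 members were called higher and 27 lower from E18.5 to P3 (12.2% and 14.7% of all genes). From E18.5 to 10 weeks 8 were then lower (8.81% of all genes). With a pseudocount of 5, 2 were higher and 4 lower from E18.5 to P3 (5.75% and 4.27% of all genes). From P3 to 10 weeks 14 were then higher and 2 lower (10.9% and 6.13%), and from E18.5 to 10 weeks 11 were higher (8.69%). A minimum of 5 FPKM, which left 35 members, gave 5 higher from E18.5 to P3 (11.0% of all genes at that minimum). From P3 to 10 weeks it gave 18 higher and 4 lower (19.5% and 10.9%), and from E18.5 to 10 weeks 14 higher (16.6%). From E18.5 to 10 weeks, 5 were lower with median-of-ratios scaling (8.41% of all genes) and 6 with upper-quartile scaling (9.15%). These scalings shift every log2 ratio by -0.12 and -0.19 from E18.5 to P3, by -0.10 and -0.11 from P3 to 10 weeks, and by -0.22 and -0.30 from E18.5 to 10 weeks. The other counts stayed within 1.5 times of those reported, also without a minimum and without chromosomes X and Y. No call of a named member changed sign under the pseudocounts and scalings tried. With a pseudocount of 5, P3 calls of Trpm1 and Kcnk7 remained. Depth is unknown, so the precision of low values cannot be given.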
